A study of Mus musculus with 20 samples.

Results

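Transcripts of 7 chemokine receptors carried by leukocytes were followed in kidney RNA: Ccr1, Ccr2, Ccr7, Cx3cr1, Cxcr3, Cxcr4 and Cxcr6. They were taken as a set of named genes, with earlier results of these data known, and each was found by its symbol among the 26608 genes of one count table and the 30809 genes of another. All 7 were listed in both tables, and all 7 passed the filter on low counts in both. The kidneys came from aged mice that had received a bone marrow transplant, which gave them a Control or a LOY blood system. LOY stands for loss of the Y chromosome, here in the blood-forming cells. One table held 6 Control kidneys (animals 3, 11, 12, 13, 16 and 17) and 6 LOY kidneys (animals 5, 8, 9, 10, 14 and 18). The other held kidneys of LOY mice given a control compound (animals 6, 8, 9 and 10, n = 4) or ABT263 (animals 15, 16, 17 and 18, n = 4). ABT263, also called ABT-263 or navitoclax, inhibits anti-apoptotic BCL-2 family proteins and is used as a senolytic, a compound that kills senescent cells. Animal numbers 8, 9, 10 and 18 belong to LOY mice in both tables, and the labels do not say whether they mark the same mice. Numbers 16 and 17 are Control in one table and LOY in the other. All mice were transplanted, so no untransplanted kidney served as a reference, and the ABT263 table held no Control kidneys. The labels leave out how the LOY marrow was made, the strain, the age in numbers and the doses.

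Chemokines are small secreted proteins that guide leukocyte movement, and their receptors are G protein-coupled receptors with inhibitory G proteins on the inner side of the membrane. Ccr2 binds Ccl2 and related ligands and draws inflammatory monocytes out of marrow and blood. Cx3cr1 binds Cx3cl1 (fractalkine) and marks patrolling monocytes and many resident kidney macrophages. Ccr1 is carried by monocytes, macrophages and neutrophils and binds Ccl3, Ccl5 and others. Cxcr3 marks effector T cells and NK cells and binds the interferon-induced Cxcl9 and Cxcl10. Cxcr6 marks tissue T cells and some innate lymphoid cells and binds Cxcl16. Cxcr4 binds Cxcl12, holds stem cells and myeloid cells in the marrow, and is also made by cells other than leukocytes. Ccr7 binds Ccl19 and Ccl21 and brings dendritic cells, naive T cells and B cells to lymph nodes.

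In the GENCODE annotation of GRCm38, 4 of the 7 genes lay on chromosome 9. Ccr1 ran from 123962124 to 123968692 on the minus strand and Ccr2 from 124101950 to 124113557 on the plus strand. Cxcr6 ran from 123806475 to 123811760 on the plus strand, and Cx3cr1 from 119901616 to 120069879 on the minus strand. The other three lay apart: Ccr7 on chromosome 11 (99144196 to 99155077, minus strand), Cxcr3 on chromosome X (101731535 to 101734269, minus strand) and Cxcr4 on chromosome 1 (128588199 to 128592293, minus strand). Cxcr6 sat inside Fyco1, an autophagy adaptor gene on the opposite strand, without sharing exon bases. No source used here gives the strand setting of the counting, so unspliced Fyco1 reads and Cxcr6 reads cannot be told apart. Of the exon bases of Cx3cr1, 78 (1.73%) were shared with the antisense gene Gm33858.

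RefSeq start-site sequences (GRCm38.p6) were held for 6 of the 7 receptors: Ccr1, Ccr2, Cx3cr1, Cxcr3, Cxcr4 and Cxcr6. The 250 bases upstream of the start are shown for the receptor that passed the test with LOY (Ccr2), the next in order of p (Cxcr3 and Cx3cr1) and the receptor with the smallest p under ABT263 (Cxcr4). They cover chr9:124101933-124102182 (plus strand), chr9:120068297-120068546 (minus), chrX:101734148-101734397 (minus) and chr1:128592300-128592549 (minus), each 5′ to 3′ along the gene. Starts differ between annotations: of these 250 bases, 233 for Ccr2, 250 for Cx3cr1, 122 for Cxcr3 and 0 for Cxcr4 lay inside the GENCODE span. Capitals mark the letters of 4 short motifs searched on both strands. The motif of PU.1, a myeloid transcription factor, was read as GAGGAA. That of the RUNX factors was read as TGTGGT. The GC box was read as GGGCGG. The TATA box was read as TATAAA.
Ccr2: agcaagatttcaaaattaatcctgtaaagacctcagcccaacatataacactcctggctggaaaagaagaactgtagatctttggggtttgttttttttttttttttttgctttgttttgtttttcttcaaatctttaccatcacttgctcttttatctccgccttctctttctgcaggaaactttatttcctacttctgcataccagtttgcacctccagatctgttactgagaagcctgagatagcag
Cx3cr1: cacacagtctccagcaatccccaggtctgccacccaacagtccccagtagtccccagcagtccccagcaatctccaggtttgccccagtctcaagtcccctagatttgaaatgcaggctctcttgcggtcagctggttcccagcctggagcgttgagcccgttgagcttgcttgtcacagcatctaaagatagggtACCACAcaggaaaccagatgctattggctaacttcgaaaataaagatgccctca
Cxcr3: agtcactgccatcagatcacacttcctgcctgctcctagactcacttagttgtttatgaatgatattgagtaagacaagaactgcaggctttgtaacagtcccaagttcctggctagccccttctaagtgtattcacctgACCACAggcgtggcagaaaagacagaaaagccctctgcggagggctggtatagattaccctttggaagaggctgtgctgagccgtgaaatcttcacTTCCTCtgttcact
Cxcr4: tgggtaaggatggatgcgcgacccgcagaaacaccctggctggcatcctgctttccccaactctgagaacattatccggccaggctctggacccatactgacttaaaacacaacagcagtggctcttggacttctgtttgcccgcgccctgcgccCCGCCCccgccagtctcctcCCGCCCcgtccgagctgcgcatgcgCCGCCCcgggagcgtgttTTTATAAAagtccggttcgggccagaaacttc
Cxcr4 held the GC box letters at -95, -75 and -50 from the start, each on the other strand, and the TATA box letters at -30, overlapping an other-strand match at -32. Cxcr3 held a RUNX match at -110 and a PU.1 match at -14, and Cx3cr1 a RUNX match at -54, all on the other strand. Ccr2 held none of the 4 motifs. Among 32851 upstream windows of the same length, 23.3% held the PU.1 letters, 14.0% the RUNX letters, 32.7% the GC box and 12.4% the TATA box. These matches describe letters and are not shown to be sites.

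Gene counts per kidney totalled 13332563 to 19386408 in the LOY table and 14587809 to 20791633 in the ABT263 table. Kidney identity markers (8 genes, such as Umod and Slc34a1) summed to 7490 to 16800 CPM (counts scaled to the library total) in the LOY table and 11000 to 15500 CPM in the other, and none was at 0. A few libraries stood apart. Control animal 3 was the highest of its group for 8 of 13 macrophage markers and the lowest for 2. The same kidney was the lowest for 5 of 8 kidney markers and the highest for 2. For urothelium markers it was the highest in 4 of 6 and the lowest in 0. LOY animal 10 had the lowest kidney marker sum, and LOY animal 8 the highest T cell marker sum. Control-compound animal 6 was the lowest of its group for 10 of 12 T cell markers and the highest for 6 of 6 urothelium markers. ABT263 animal 16 was the lowest of its group for 6 of 8 kidney markers. Values without one or 2 of them are given for some of the results whose highest or lowest end they set.

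Read against the length of their exons, the receptors of the LOY table fell into 2 tiers. Among Control kidneys the level was 2.82 ± 0.953 CPM per kilobase for Cxcr4, 2.21 ± 0.787 for Cx3cr1 and 2.16 ± 0.42 for Ccr2 (mean ± SD, n = 6). Then came Cxcr3 at 0.971 ± 0.304, Cxcr6 at 0.799 ± 0.384, Ccr7 at 0.637 ± 0.379 and Ccr1 at 0.323 ± 0.169 CPM per kilobase. Only the step from Ccr2 to Cxcr3 separated neighbours whose ranges did not overlap, in Control and in LOY kidneys alike. The order was the same in LOY kidneys, from 4.07 ± 1.69 (Cxcr4) to 0.525 ± 0.176 (Ccr1). In the ABT263 table, set apart because the tables were made separately, Cx3cr1 led with 5.56 ± 1.58 CPM per kilobase in control-compound kidneys and 4.6 ± 0.396 in ABT263 kidneys. There the step without overlap lay between Cxcr4 and Cxcr6 in control-compound kidneys, and between Ccr2 and Cxcr4 in ABT263 kidneys. The annotated exon length of Ccr2 was 6.76 kilobases, against 1.73 to 4.5 for the other receptors, and its value per kilobase depends on that annotation.

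Counts of 4 receptors were low. In the LOY table Ccr1 had 7 to 31 counts per kidney, Ccr7 5 to 76, Cxcr6 12 to 50 and Cxcr3 17 to 70. Cxcr4 had 45 to 213, Cx3cr1 78 to 378 and Ccr2 136 to 473 counts. In the ABT263 table Ccr7 had 13 to 30 counts, Ccr1 16 to 105, Cxcr3 11 to 70 and Cxcr6 21 to 84. Sampling of reads alone makes single values of these genes uncertain.

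All 7 receptor transcripts had higher means in LOY than in Control kidneys, and Ccr2, the monocyte receptor, was the only one to pass the test across all genes. Fitted ratios ran from 1.45-fold (Cxcr4) to 1.95-fold (Cxcr3), with a median log2 fold change of 0.75 against 0.0187 over all genes tested. The edgeR quasi-likelihood test, with p adjusted over all genes and a threshold of 0.05, called 1 of 7 higher and 0 lower. Of all 14978 genes tested, 1.11% were higher and 0.0601% lower past that threshold, or 1.18% in either direction. Log2 fold changes were above 0 for 52.3% of genes. Before adjustment, 4 of 7 receptors were higher at p under 0.05, against 13.5% of genes higher and 9.33% lower. Groups that did not overlap were found for 2 of 7 receptors, both higher in LOY, against 1.56% of genes higher and 0.461% lower. In whole kidney, more leukocytes and more receptor RNA per leukocyte cannot be told apart.

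**Figure D1:**
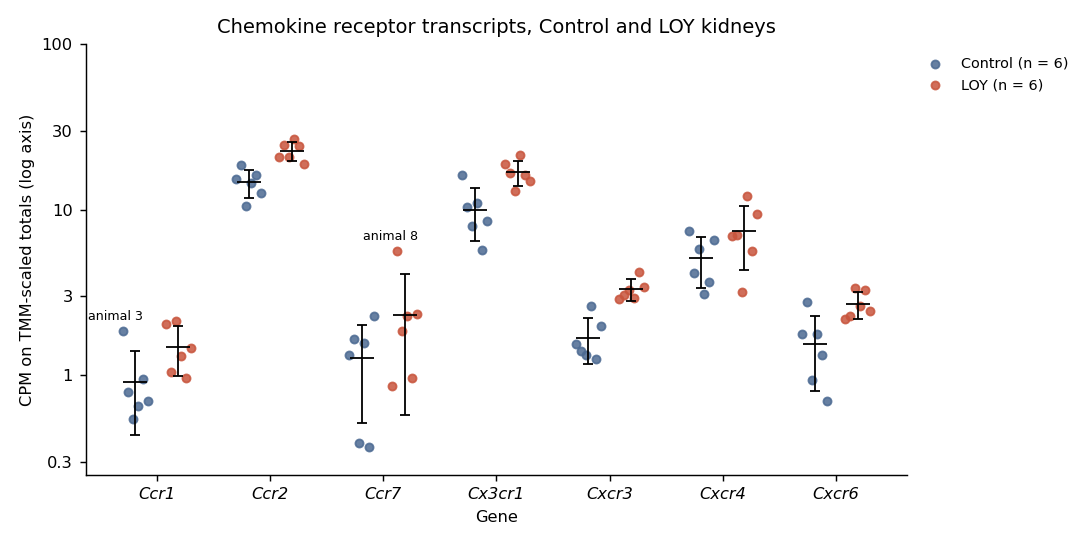
CPM of the 7 receptors in each kidney of the LOY table (log axis), with points for single kidneys, horizontal ticks for means and bars for SD. The LOY points of Ccr2 and Cxcr3 all lie above the Control points, while those of the other receptors overlap; the far Ccr1 (Control animal 3) and Ccr7 (LOY animal 8) values are labelled.

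Ccr2 stood at 10.5, 14.9 and 18.7 CPM (lowest, median and highest) in Control kidneys and at 18.9, 22.5 and 26.8 CPM in LOY kidneys. Every LOY kidney lay above every Control kidney, although LOY animal 18 and Control animal 11 almost met. The means were 14.6 ± 2.84 and 22.6 ± 2.97 CPM (SD, n = 6 each), and Ccr2 rose by 0.63 ± 0.14 on the log2 scale (SE; 1.55-fold; edgeR adjusted p = 0.0472). This call sat close to the threshold. Animal numbers of 10 or under made up 1 of 6 Control but 4 of 6 LOY kidneys. With a term for numbers above 10 the log2 fold change was 0.58 (edgeR adjusted p = 0.211), and edgeR called 0 genes of the whole table (893 higher and 301 lower at an unadjusted p under 0.05). Among animals above 10 alone it was 0.56 (edgeR adjusted p = 0.132), and the other animals included 1 Control kidney, too few for a value. The call held without Control animal 3, LOY animal 8 or LOY animal 18. Leaving out another Control kidney gave an edgeR adjusted p of 0.0716 (animal 11), 0.138 (12), 0.109 (13), 0.0958 (16) or 0.133 (17). Leaving out another LOY kidney gave 0.0579 (animal 5), 0.0701 (9), 0.128 (10) or 0.0725 (14), and without LOY animals 8 and 10 the log2 fold change was 0.51 (edgeR adjusted p = 0.142). Its log2 fold change stayed between 0.51 and 0.71 over all 23 alternatives.

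Cx3cr1, the fractalkine receptor of resident macrophages, stood at 5.72, 9.5 and 16.1 CPM in Control kidneys and at 13.0, 16.4 and 21.4 CPM in LOY kidneys. The groups met through Control animal 3, the highest Control kidney, which lay above LOY animals 9 and 18 and level with animal 14. Means were 9.97 ± 3.55 and 16.8 ± 2.97 CPM (SD, n = 6 each), with a log2 fold change of 0.75 ± 0.21 (SE, edgeR adjusted p = 0.0897). Without Control animal 3 the log2 fold change was 0.94 and the edgeR adjusted p 0.0188. With all kidneys Cx3cr1 passed with DESeq2 and with voom, so the call moved with that kidney and with the test.

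Ccr1, a receptor of monocytes and neutrophils, was the least abundant of the set. Its CPM were 0.543, 0.744 and 1.85 in Control kidneys and 0.962, 1.38 and 2.13 in LOY kidneys. The highest Control value again came from animal 3. The log2 fold change was 0.71 ± 0.35 (SE, edgeR adjusted p = 0.24), and 1.02 without that animal (edgeR adjusted p = 0.0856).

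Cxcr3, the receptor of effector T cells, had the largest ratio of the 7 and did not pass. Its CPM were 1.25, 1.47 and 2.61 in Control kidneys and 2.9, 3.15 and 4.22 in LOY kidneys, and the groups did not overlap. Means were 1.68 ± 0.526 and 3.29 ± 0.492 CPM (SD, n = 6 each), a log2 fold change of 0.96 ± 0.24 (SE, edgeR adjusted p = 0.0608). Each LOY kidney rested on 41 to 70 counts and each Control kidney on 17 to 40.

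Cxcr6, the receptor of tissue T cells, had CPM of 0.696, 1.54 and 2.77 in Control kidneys and 2.18, 2.52 and 3.34 in LOY kidneys. Only Control animal 11 reached into the LOY range. Its log2 fold change was 0.79 ± 0.31 (SE, edgeR adjusted p = 0.172). Fyco1, whose introns span Cxcr6, had a log2 fold change of -0.21 ± 0.12 (SE, edgeR adjusted p = 0.277).

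Cxcr4, the Cxcl12 receptor, spread widely among LOY kidneys. Its CPM were 3.07, 4.95 and 7.39 in Control kidneys and 3.19, 6.98 and 12.1 in LOY kidneys. LOY animal 10 was the highest and LOY animal 9 lay at the bottom of the Control range. Its log2 fold change was 0.54 ± 0.30 (SE, edgeR adjusted p = 0.275), and it was 0.29 without LOY animals 8 and 10.

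Ccr7, the lymph node homing receptor, varied more than the other receptors in this table, with a coefficient of variation of 59.5% among Control and 75.2% among LOY kidneys. Its CPM were 0.367, 1.45 and 2.26 in Control kidneys and 0.857, 2.06 and 5.62 in LOY kidneys. The highest LOY value came from animal 8, at 76 counts. Its log2 fold change was 0.85 ± 0.51 (SE, edgeR adjusted p = 0.312), and it was 0.23 without LOY animals 8 and 10.

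**Figure D2:**
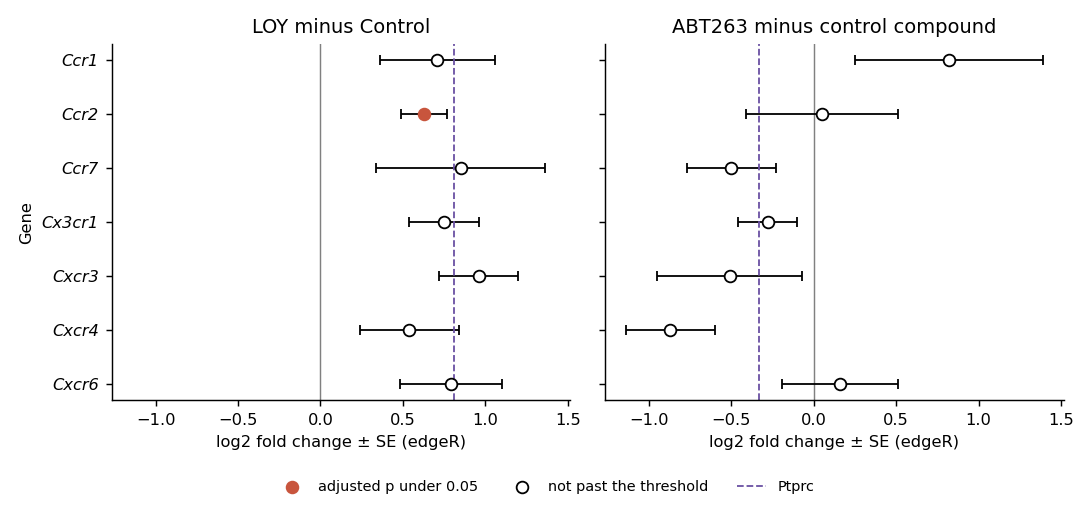
Log2 fold changes ± SE of the 7 receptors (horizontal axis) in the LOY comparison (left) and the ABT263 comparison (right); filled points passed an edgeR adjusted p of 0.05, and the dashed line is the log2 fold change of Ptprc. In LOY kidneys the values lie between 0.54 and 0.96, around the Ptprc value of 0.81; under ABT263 they lie on both sides of 0 and none passed.

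Some general leukocyte transcripts were higher in the same LOY kidneys. Ptprc, which encodes the pan-leukocyte protein CD45, went from 18.2 ± 3.16 to 31.9 ± 5.51 CPM (SD, n = 6 each), and it rose by 0.81 ± 0.14 on the log2 scale (SE, edgeR adjusted p = 0.025). The 10 pan-leukocyte markers summed to 120 to 174 CPM in Control and 199 to 234 CPM in LOY kidneys. Of these, 3 of 10 were higher past the threshold (Ptprc, Cd52 and Cd53), while Laptm5 stood at 0.63 ± 0.15 (log2 fold change ± SE), Ptpn6 at 0.26 ± 0.09 and Arhgdib at 0.10 ± 0.14. The 13 macrophage markers summed to 297 to 421 CPM against 455 to 618, and 4 of 13 passed (C1qa, C1qc, Lyz2 and Mrc1). Log2 fold changes were above 0 for 12 of the 13, with Csf1r at only 0.05 ± 0.11 (± SE). Mertk went the other way, at -0.36 ± 0.18. The 12 T cell markers summed to 13.3 to 19.0 CPM against 27.4 to 47.0, and 3 of 12 passed (Cd3d, Cd3g and Cd2). Ratios to Ptprc, and to Laptm5 as an alternative, were the tests that set the receptors against such markers. The part of the other markers was not tested. Calls over all genes moved with single kidneys: 167 genes were higher with all 12, 478 without Control animal 3, and 0 without Control animal 16 or 17.

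Other marker lists gave fewer calls. Of the monocyte markers, 1 of 5 tested passed (Plac8, log2 fold change 1.2 ± 0.25). Of these 5, 4 stood above 0 and Ace below it, at -0.38 ± 0.18. Lymph node markers gave 1 of 4 (Cxcl13, 1.62 ± 0.32, ± SE). NK (5 tested), B cell (5), dendritic (9), neutrophil (2), endothelial (8), kidney (8) and urothelium (6) markers gave 0 higher and 0 lower. NK cell marker Ncr1 was at 0 counts in all 12 kidneys, and neutrophil marker Ly6g had 1 count in each group. Members of smallest p, as log2 fold change ± SE, were Klrk1 (1.55 ± 0.38) and Klrd1 (1.01 ± 0.35) for NK cells, Cd79a (0.91 ± 0.52) for B cells, and Itgax (0.66 ± 0.19) and Flt3 (1.11 ± 0.37) for dendritic cells. They were Csf3r (0.78 ± 0.29) and S100a8 (0.61 ± 0.58) for neutrophils, Kdr (-0.39 ± 0.18) and Cldn5 (0.45 ± 0.22) for endothelium, Lrp2 (-0.67 ± 0.25) and Slc34a1 (-0.50 ± 0.19) for kidney, and Upk3a (1.05 ± 0.51) and Upk2 (0.67 ± 0.49) for urothelium. Among the dendritic markers, 8 of 9 stood above 0 and Zbtb46 below it, at -0.32 ± 0.24. Kidney markers had a median log2 fold change of -0.40, and their sum was 11200 to 16800 CPM in Control and 7490 to 13700 in LOY kidneys.

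Set against Ptprc within each kidney, no receptor passed a test of the difference between LOY and Control. The log2 ratio of receptor to Ptprc for Ccr2 was -0.32 ± 0.29 among Control and -0.49 ± 0.30 among LOY kidneys (SD, 6 kidneys each). The difference of -0.16 had an exact two-sided permutation p of 0.387. Cxcr3 had the highest difference, 0.15 (exact permutation p = 0.429), and Cxcr4 the lowest, -0.32 (exact permutation p = 0.286). For Cx3cr1 the Control ratio was -0.92 ± 0.34 and the LOY ratio -0.92 ± 0.29 (SD, n = 6 each; exact permutation p = 0.991). Adjusted over these 7 ratio tests, every p was 0.991. The smallest p that 6 against 6 allows is 0.00216. These values do not show that the ratios were equal. Within groups their SD was 0.24 to 1.06 log2 units.

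**Figure D3:**
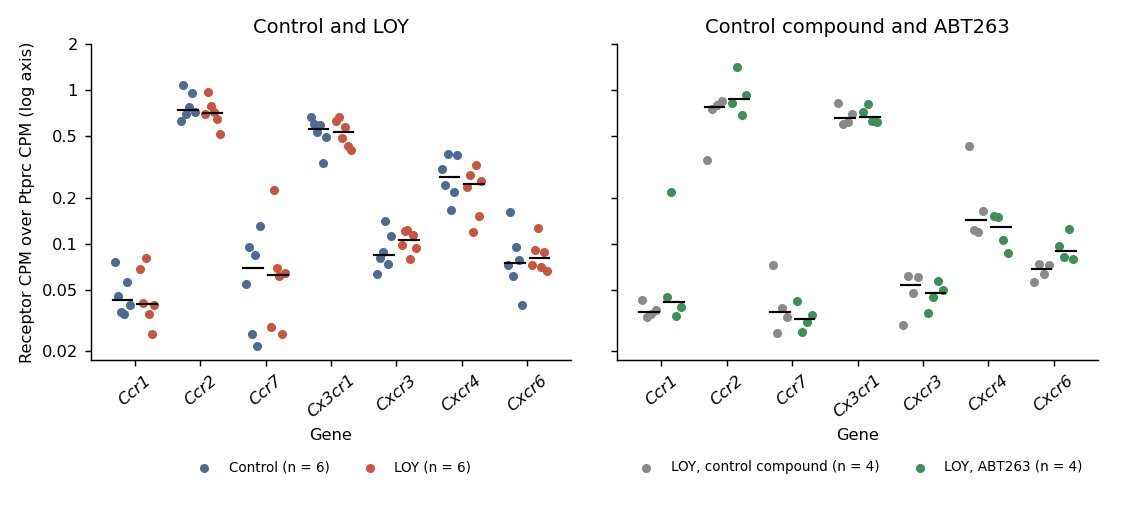
Receptor CPM divided by Ptprc CPM in each kidney (log axis), with points for single kidneys and lines for group medians. Control and LOY kidneys overlap for all 7 receptors; in the ABT263 table Cxcr6 is the receptor whose groups separate, and Ccr1 in ABT263 animal 16 and Ccr2 in control-compound animal 6 lie far from their groups.

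Of the receptors' ligands, 15 of 17 listed genes were tested, and 4 were higher past the threshold in LOY kidneys. Ccl2, the main ligand of Ccr2, stood at 2.02 to 9.09 CPM in Control and 9.32 to 13.3 CPM in LOY kidneys and rose by 1.33 ± 0.28 on the log2 scale (SE, edgeR adjusted p = 0.0375). Ccl9, which binds Ccr1 in mice, rose by 1.37 ± 0.21 (edgeR adjusted p = 0.023), and Ccl5 rose by 1.30 ± 0.26 (edgeR adjusted p = 0.0343). Cxcl16, the ligand of Cxcr6, rose by 0.79 ± 0.14 (edgeR adjusted p = 0.025), from 50.1 ± 7.42 to 86.8 ± 17.0 CPM. The median log2 fold change of the 15 was 0.88, and 0 were lower past the threshold.

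The remaining ligands did not pass. Among the ligands of Ccr1 and Ccr2, Ccl12 stood at 1.67 ± 0.41 (log2 fold change ± SE; edgeR adjusted p = 0.062), Ccl7 at 1.14 ± 0.44, Ccl3 at 1.06 ± 0.45 and Ccl6 at 0.75 ± 0.24. Cx3cl1, the ligand of Cx3cr1, was abundant at 139 ± 19.2 CPM in Control and 189 ± 29.3 CPM in LOY kidneys (SD, n = 6 each), with a log2 fold change of 0.44 ± 0.12 (edgeR adjusted p = 0.0874). The Cxcr3 ligands Cxcl9, Cxcl10 and Cxcl11 stood at 1.21 ± 0.41, 0.78 ± 0.26 and 0.66 ± 0.48. The Ccr7 ligands Ccl19 and Ccl21a stood at 0.84 ± 0.38 and 0.88 ± 0.46. Cxcl12, the ligand of Cxcr4 and the most abundant of all at 245 ± 60.0 CPM in Control kidneys, was the only tested ligand below 0 (-0.15 ± 0.17). Ccl21b was at 0 counts in all 12 kidneys and Ccl21c was not analysed here.

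**Figure D4:**
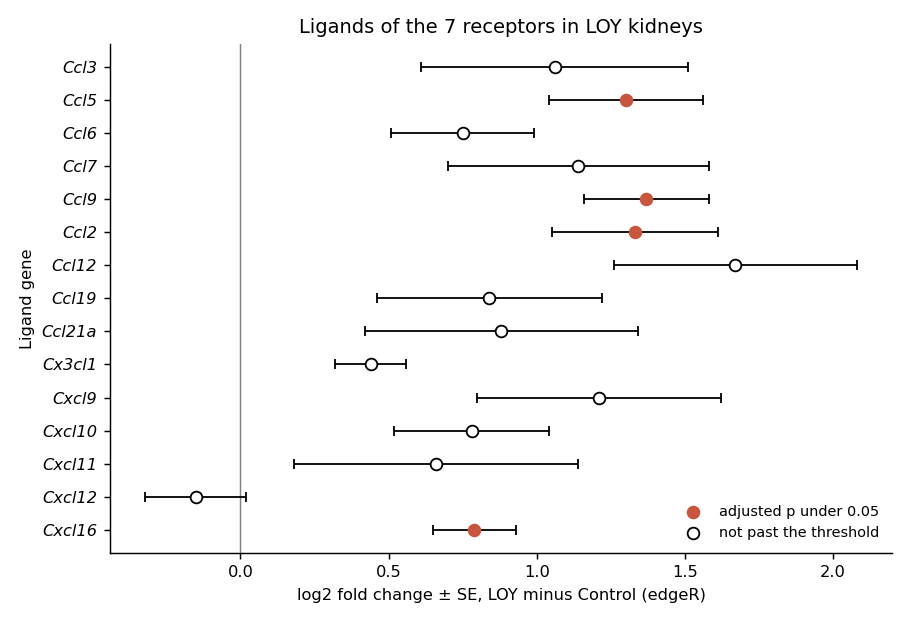
Log2 fold changes ± SE (horizontal axis) of the 15 tested ligands of the 7 receptors between LOY and Control kidneys; filled points passed an edgeR adjusted p of 0.05. Ccl2, Ccl5, Ccl9 and Cxcl16 passed, and only Cxcl12 lies below 0.

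Among 20 other chemokine and related receptors, 10 passed the filter and 0 passed the test in either direction, with a median log2 fold change of 0.42. Cxcr5, the B cell follicle receptor, stood at 0.77 ± 0.37 (edgeR adjusted p = 0.228). Ackr3, a scavenger of Cxcl12, was the most abundant at 76.1 ± 8.98 CPM in Control kidneys and had a log2 fold change of -0.07 ± 0.19. Cxcr1 was at 0 counts, and the neutrophil receptor Cxcr2 had 8 counts in the whole Control group and 4 in the whole LOY group.

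Downstream of the receptors, 5 of 33 tested signalling and adhesion genes were higher past the threshold in LOY kidneys and 0 were lower, with a median log2 fold change of 0.40. They were Pik3r5, the regulatory subunit of the PI3K isoform driven by G protein βγ (1.04 ± 0.21, log2 fold change ± SE), Rac2, the leukocyte Rac GTPase (1.18 ± 0.22), the actin regulator Coro1a (0.95 ± 0.21), the integrin activator Fermt3 (0.85 ± 0.16) and the leukocyte integrin chain Itgb2 (0.84 ± 0.17), with edgeR adjusted p of 0.0345, 0.0293, 0.0451, 0.0285 and 0.0343. All 5 are made mainly by leukocytes. Of the 28 that did not pass, values ran from -0.46 ± 0.29 (Rap1b) to 1.04 ± 0.24 (Dock2). Among the widely expressed ones, Gnai2 stood at 0.48 ± 0.15, Grk2 at 0.40 ± 0.11, Rac1 at 0.05 ± 0.09 and Arrb1 at -0.30 ± 0.12.

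On chromosome 9, the following tested neighbours that are no chemokine receptors did not pass in LOY kidneys. Around Cxcr6 and Ccr1, Slc6a20a stood at -0.61 ± 0.22 (log2 fold change ± SE) and Lztfl1 at -0.05 ± 0.11. Beyond Ccr2, 2010315B03Rik stood at -0.22 ± 0.13 and Ppp2r3d at 0.52 ± 0.29. Wdr48 (plus strand) overlapped the annotated span of Cx3cr1, and Gorasp1 and Csrnp1 lay inside that span on the same strand. None of them shared exon bases with Cx3cr1. Wdr48 stood at -0.05 ± 0.10, Gorasp1 at -0.15 ± 0.11 and Csrnp1 at 0.20 ± 0.18. The chemokine receptor Xcr1, between Cxcr6 and Ccr1, stood at 0.61 ± 0.49.

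In the ABT263 table no receptor passed the test in either direction, and neither did any other gene. Of 16956 genes tested, 0.00% were higher and 0.00% lower past an edgeR adjusted p of 0.05, so the share in either direction was 0.00%. Before adjustment, 0 of 7 receptors were higher at p under 0.05, against 2.95% of genes, and 1 of 7 (Cxcr4) was lower, against 2.96%. The control-compound animals were numbered 6 to 10 and the ABT263 animals 15 to 18, so a split by animal number and the treatment cannot be told apart. DESeq2 called 16 genes higher and 28 lower, and voom 3 and 8, with 0 receptors among them. Log2 fold changes were above 0 for 3 receptors, below 0 for 4 and above 0 for 49.4% of all genes, with a receptor median of -0.28. Groups that did not overlap were found for Ccr7 alone, lower under ABT263, against 2.25% of genes lower and 2.04% higher.

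Cxcr4 had the smallest p. In control-compound kidneys it stood at 9.39 CPM (animal 6), 6.6 (8), 3.9 (9) and 6.83 (10), and in ABT263 kidneys at 4.22 (15), 4.22 (16), 3.57 (17) and 2.62 (18). Only control-compound animal 9 lay within the ABT263 range. The means were 6.68 ± 2.24 and 3.66 ± 0.755 CPM (SD, n = 4 each), with a log2 fold change of -0.87 ± 0.27 (SE, edgeR adjusted p = 0.662). Leaving out single kidneys moved it between -1.05 and -0.66.

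Ccr7 stood at 1.58, 1.42, 1.26 and 1.4 CPM in control-compound animals 6, 8, 9 and 10, and at 1.19, 0.751, 1.04 and 1.04 CPM in ABT263 animals 15, 16, 17 and 18. All ABT263 kidneys lay below all control-compound kidneys, on 13 to 20 against 21 to 30 counts. Its log2 fold change was -0.50 ± 0.27 (SE, edgeR adjusted p = 0.846).

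Ccr2 depended on single animals. Control-compound animals 6, 8, 9 and 10 had 7.63, 40.8, 26.2 and 35.4 CPM, and ABT263 animals 15, 16, 17 and 18 had 22.9, 39.8, 23.4 and 28 CPM. Animal 6 lay far below all the others. The log2 fold change was 0.05 ± 0.46 (SE, edgeR adjusted p = 0.996) with all kidneys, -0.26 without animal 6, -0.15 without ABT263 animal 16, and -0.46 ± 0.15 (edgeR adjusted p = 0.156) without both.

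Ccr1 depended on ABT263 animal 16, which had 6.07 CPM (105 counts) while the other three ABT263 kidneys had 1.14 to 1.25. Control-compound kidneys lay between 0.939 and 1.8 CPM. The log2 fold change was 0.82 ± 0.57 (SE, edgeR adjusted p = 0.854) with animal 16 and -0.20 without it. The same kidney was the highest of its group for 7 of 13 macrophage, 3 of 9 monocyte, 5 of 7 neutrophil, 5 of 9 NK and 7 of 10 pan-leukocyte markers. It was the lowest for 3 macrophage markers (Adgre1, Lyz2 and Mrc1), 2 monocyte markers (F10 and Treml4), 1 neutrophil marker (S100a8), 1 NK marker (Klrb1c) and 0 pan-leukocyte markers. Their part in the Ccr1 value was not tested.

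Cx3cr1, Cxcr3 and Cxcr6 shared their low point among control-compound kidneys. Cx3cr1 stood at 17.9, 32.8, 20.3 and 29.3 CPM in animals 6, 8, 9 and 10, and at 20, 22.9, 21.2 and 18.8 CPM in ABT263 animals 15 to 18 (log2 fold change -0.28 ± 0.18, edgeR adjusted p = 0.852). Cxcr3 stood at 0.646, 3.32, 1.56 and 2.54 CPM and at 0.989, 1.27, 1.92 and 1.52 CPM (-0.51 ± 0.44, edgeR adjusted p = 0.877). Animal 6 was the lowest and animal 8 the highest control-compound kidney for each of them. Without animal 6 the log2 fold changes were -0.41 (Cx3cr1) and -0.80 (Cxcr3), and without animal 8 they were -0.12 and -0.16. Cxcr6 stood at 1.23, 3.99, 2.1 and 3.04 CPM and at 2.7, 2.31, 4.19 and 2.42 CPM (0.16 ± 0.35, edgeR adjusted p = 0.961), with -0.07 without animal 6 and 0.45 without animal 8. Ptprc followed the same order, with 21.8, 54.0, 32.8 and 41.9 CPM in animals 6, 8, 9 and 10.

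**Figure D5:**
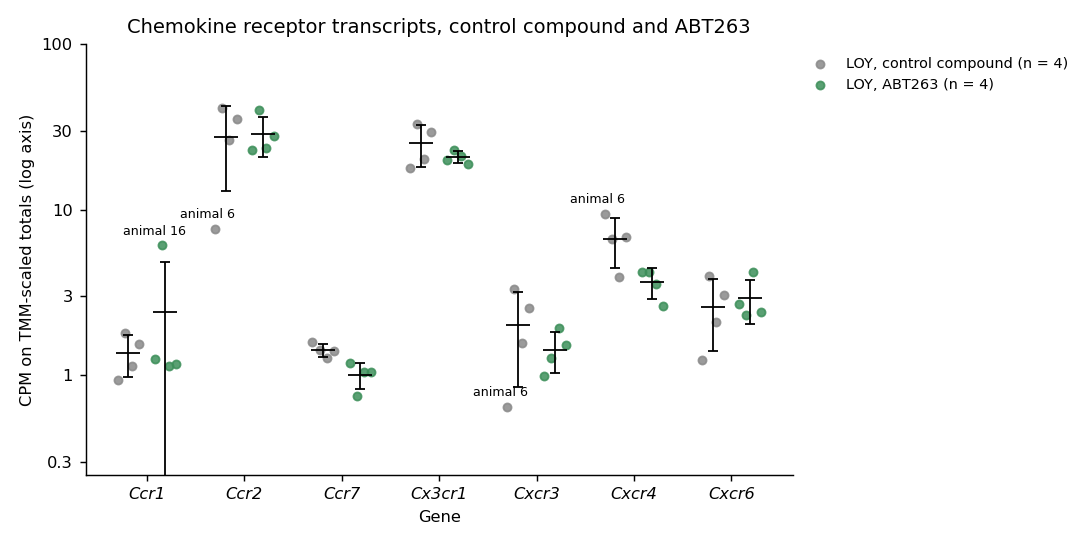
CPM of the 7 receptors in each kidney of the ABT263 table (log axis), with points for single kidneys, horizontal ticks for means and bars for SD; the lower bar of Ccr1 under ABT263 runs off the axis. ABT263 animal 16 sets the Ccr1 mean and control-compound animal 6 the low ends of Ccr2 and Cxcr3, and only the Ccr7 groups do not overlap.

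Relative to Ptprc, Cxcr6 was the receptor whose groups separated in the ABT263 table. Its log2 ratio to Ptprc was -3.84 ± 0.14 with the control compound and -3.35 ± 0.28 with ABT263 (SD, n = 4 each), a difference of 0.49. The exact two-sided permutation p of 0.0286 is the smallest that 70 splits can give, and adjusted over the 7 ratio tests it was 0.2. With so few splits, a single receptor could not pass the adjusted test, so that test cannot decide for Cxcr6 alone. Differences of the other receptors ran from -0.55 (Cxcr4) to 0.68 (Ccr1), with exact permutation p of 0.257 or more. Both ends moved with single kidneys. With 1 kidney left out the difference ran from -0.75 to -0.14 for Cxcr4 and from 0.09 to 0.94 for Ccr1.

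Marker and ligand lists gave 0 calls in either direction under ABT263. The T cell markers had a median log2 fold change of -0.64 and the macrophage markers of -0.31. The monocyte markers had a median of 0.23, with 5 of 7 tested above 0 and 2 below. Ligands had a median of -0.38, with Ccl2 at -0.65 ± 0.26 and Ccl9 at -0.66 ± 0.37 (log2 fold change ± SE). The signalling genes had a median of -0.12. Pan-leukocyte sums were 156 to 230 CPM with the control compound and 148 to 188 CPM with ABT263, and T cell sums 15.8 to 40.2 and 14.4 to 20.5 CPM.

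Correlations between receptors, with group means removed, are given as a description, since the values of a kidney share 1 library and its depth. Over the 8 kidneys Pearson's r was 0.93 for Cxcr3 with Cxcr6, 0.85 for Cxcr3 with Ccr2 and with Cx3cr1, and 0.83 for Ccr2 with Cx3cr1. Control-compound animal 6 was the lowest of its group for all 4 genes. Over the 12 kidneys of the LOY table the same pairs had r of 0.06, -0.10, 0.20 and 0.30, and the highest pair was Ccr2 with Cxcr6 (0.67). Cxcr3 had a median r of 0.85 with the 12 T cell markers over the 8 kidneys and 0.30 over the 12. This was not particular to Cxcr3: over the 8 kidneys the median was 0.82 for Cx3cr1, 0.76 for Cxcr6 and 0.73 for Ccr2. It was 0.29 for Ccr1, -0.13 for Cxcr4 and -0.27 for Ccr7.

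The genes with the most similar pattern over the 12 kidneys of the LOY table, group means removed and at least 5 CPM, were Mboat2, Tmc4 and Slc14a2 for Ccr2 (r = 0.85, 0.84 and 0.83). For Cx3cr1 they were Col6a3, P2ry6 and 2310022A10Rik (0.91, 0.90 and 0.84), and for Cxcr6 St3gal4, Col6a2 and Pltp (0.87, 0.83 and 0.81). Over the 8 kidneys of the other table r with Cx3cr1 was 0.75 for Col6a3, 0.61 for P2ry6 and -0.32 for 2310022A10Rik. For the Cxcr6 genes it was 0.77, 0.62 and 0.67. With Ccr2 it was -0.90 for Mboat2, -0.92 for Slc14a2 and 0.47 for Tmc4. Ccr1 was followed by Zfp276, Zfp384 and Rgs3 (0.91, 0.90 and 0.90), Cxcr3 by BC057022, Leprotl1 and Slc4a2 (0.87, 0.82 and 0.80), Cxcr4 by Pvrl2, Acsl5 and Large (0.93, 0.89 and 0.83) and Ccr7 by 2610034B18Rik, Dgka and Atxn7l1 (0.90, 0.88 and 0.87). For these, r over the 8 kidneys lay between -0.34 (Dgka) and 0.50 (Slc4a2) where the gene was listed there.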

How the data were processed

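The labels list 20 kidney RNA libraries, in 2 tables. The values are whole-number counts per gene, deposited by the authors. The submitters' processing notes name mm10. Neither those notes nor the labels state the aligner, the counter with its strand setting, or the gene models. A row without a gene (0.223% to 0.401% of the LOY table's counts) was left out. Mitochondrially encoded genes took 7.91% to 11.1% of the counts with ABT263 or its control compound, while the LOY table held 0 such genes. Columns without a sample numbered 0.

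Groups followed the labels, and each table was fitted alone (R 4.3.3, edgeR 4.0.16). Genes were kept by filterByExpr (minimum count 10, minimum total 15) and scaled by TMM. The robust quasi-likelihood F test was used with Benjamini-Hochberg adjustment over all tested genes with a threshold of 0.05. Each SE was taken as |log2 fold change| divided by √F. CPM use TMM-scaled totals. Log2 ratios to Ptprc used log2 CPM with a prior count of 2 and exact two-sided permutation. DESeq2 1.42.0 and voom with sample weights (limma 3.58.1), other scalings, filters and left-out kidneys were run as alternatives. Counts limit precision, and intervals are not given.

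The members and lists were chosen with earlier results of these data known. Named genes were all 7 receptors, all their ligands, members of other lists past the threshold (otherwise the 2 of smallest p), the 3 genes of most similar pattern and chromosomal neighbours; those outside this rule, such as Rac1 and Ackr3, were chosen after their values were seen. Coordinates and exon lengths are from GENCODE M21 and upstream sequences from RefSeq (GRCm38.p6). No pair of replicates agreed within sampling noise (lowest median chi-square 1.91 of 30 pairs in the LOY table and 1.63 of 12 in the other). Each replicate is 1 animal number. Members of smallest p were not printed for the ABT263 comparison, where no list had a call, and some genes that the rule covers are not reported here. The scripts were tested on simulated data.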

Additional observations from a re-analysis of the deposited data

Results flagged for a closer look

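A total of 3 values lay far from the rest of their group by a gap test over 28 groups of 4 or 6 kidneys; chance flags about 1 in 20 groups. Ccr1 stood at 6.07 CPM (105 counts) in ABT263 animal 16, against 1.14 to 1.25 CPM in the other kidneys of that group. Ccr1 stood at 1.85 CPM (25 counts) in Control animal 3, against 0.543 to 0.953 CPM in the other Control kidneys. Ccr7 stood at 5.62 CPM (76 counts) in LOY animal 8, against 0.857 to 2.33 CPM in the other LOY kidneys. LOY animal 8 was also the highest LOY kidney for 3 of 7 B cell, 5 of 12 T cell and 4 of 9 dendritic markers, Ccr7 itself being one of the last. It was the lowest for 0 B cell markers, 2 T cell markers (Cd3e and Cd28) and 1 dendritic marker (Zbtb46). Their part in the Ccr7 value was not tested.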

How the results depend on the processing

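No paired analysis was possible because the compared groups share no animal numbers. In the LOY comparison 1 receptor (Ccr2) was higher past the threshold; the count was 0 with median-ratio factors, with library totals alone, without a filter, with a mean of at least 1 CPM, with the animal number above 10 as a term, and without LOY animals 8 and 10 (chosen after seeing the data). It was 3 (Ccr2, Cx3cr1 and Cxcr3) with DESeq2, with voom and with an adjusted p of 0.1, and 0 to 2 with 1 kidney left out. Over all 23 alternatives each receptor kept its direction in LOY kidneys. Among animals numbered above 10 alone Cx3cr1 passed (edgeR adjusted p = 0.0428) and Ccr2 did not (0.132). The cause of these shifts was not tested.

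Over all genes, 167 were higher and 9 lower with LOY. These counts were 102 and 3 with library totals, 599 and 267 with DESeq2, 689 and 373 with voom, 450 and 99 at an adjusted p of 0.1, 353 and 98 among animals above 10, 26 and 3 without LOY animals 8 and 10, and 0 and 0 with the number term (893 and 301 at an unadjusted p under 0.05). Leaving out 1 kidney gave 0 to 478 and 0 to 129. Without Control animal 16 or 17, 0 were called, and without Control animal 3, 478 and 129. Control animals 11, 12 and 13 gave 3 and 0, 2 and 0, and 8 and 1 when left out. LOY animals 9 and 10 gave 94 and 2, and 1 and 0. Lower calls were 18, 28, 3 and 87 without LOY animals 5, 8, 14 and 18. Under ABT263 the counts of 0 became 16 and 28 with DESeq2, 3 and 8 with voom, 213 and 175 without control-compound animal 6 and ABT263 animal 16 (chosen after seeing the data), and 0 to 5 and 0 to 4 with 1 kidney left out; receptors past the threshold stayed at 0.

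Uncalled values under ABT263 that changed sign were Ccr1 (-0.09 with voom, -0.34 without animals 6 and 16, -0.2 to 1.06 with 1 kidney left out), Ccr2 (-0.32, -0.46 and -0.26 to 0.3) and Cxcr6 (-0.07 to 0.45 with 1 left out). Differences between groups in the log2 ratio to Ptprc also changed sign where they were near 0. In the LOY comparison these were Ccr7 (0.06) and Cx3cr1 (0.00) with a prior count of 0.5. Relative to Laptm5 they were Ccr1 (0.05), Ccr2 (0.01), Ccr7 (0.16), Cx3cr1 (0.17) and, under ABT263, Cxcr3 (0.07). With 1 kidney left out the LOY differences ran from -0.28 to 0.02 (Ccr1), -0.38 to 0.21 (Ccr7), -0.13 to 0.07 (Cx3cr1) and -0.12 to 0.25 (Cxcr6). Those under ABT263 ran from -0.41 to 0.07 (Ccr7), -0.06 to 0.11 (Cx3cr1) and -0.24 to 0.07 (Cxcr3). No ratio passed under any alternative. Under ABT263 a single receptor could not have passed, because the smallest possible p of 0.0286 became 0.2 after adjustment. The adjusted ratio tests of that table therefore cannot decide for any single receptor. Low counts limit Ccr1, Ccr7, Cxcr3 and Cxcr6.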
